A study of Homo sapiens with 6 samples.

Results

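The 200 circRNA probes with the brightest signal in HepG2 cells were examined across 6 arrays. HepG2 is an established cell line from a human liver cancer. HepG2-SR is its sorafenib-resistant derivative, which the authors obtained by culture in rising doses of sorafenib, an oral kinase inhibitor used in advanced liver cancer. RNA from 3 parental HepG2 samples, labelled sensitive to sorafenib, and 3 HepG2-SR samples, labelled resistant, was hybridized to 1 Arraystar human circRNA array each. According to the labels all samples, parental ones too, had 48 h of 7 µM sorafenib. The array methods mention no such treatment, so whether the parental cells were treated is uncertain. HepG2-SR is a single derived line. The labels and array methods do not say whether the 3 samples of a group were separate cultures, and the legend of the array panels speaks of independent experiments for all its panels together. If they were not, p-values measure only technical spread.

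CircRNAs are closed RNA loops that form when the splicing machinery joins the end of an exon to the start of the same or an upstream exon. Since they have no free ends, they resist exonucleases such as RNase R, which was used here to digest the linear RNA before labelling, and they are known to be long-lived in cells. Some circRNAs bind microRNAs or proteins, and several have been studied in liver cancer. An array of this kind reads the joined ends of each loop with a probe, so its signal is meant to stand for the circle rather than for the linear RNA of the same gene.

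The members were chosen by measured brightness. Of the 5397 circRNA probes, 1916 were well above background on all 6 arrays, which means that the scanner software marked at least 50% of the probe's spots so on each array. The 200 of these with the highest mean log2 processed signal, the fluorescence left after background subtraction, were taken, after ASCRP002384 and ASCRP002386 had been set aside by name. The levels below are therefore a description of what was chosen. The fluorescence of a probe also depends on its sequence and on labelling, so the order is one of brightness and not of RNA amount. All members are given by probe ID, since no file used here ties an ID to a circRNA name or host gene, and the HepG2 identity of the samples could not be checked against liver genes.

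The arrays differed in overall signal. The share of all circRNA probes well above background lay between 59.6% and 76.1% on 5 arrays and was 37.3% on HepG2-SR replicate 3. The median log2 processed signal over the members was 9.32, 10.67 and 9.35 on the parental arrays and 9.94, 9.84 and 8.36 on the HepG2-SR arrays, in replicate order. The lowest of these medians was that of HepG2-SR replicate 3, and the main counts are given with and without this array. The array headers carry 2 scan identifiers, and arrays that share an identifier are called a scan session here. The second session held parental replicate 1 together with HepG2-SR replicate 3, and the first held the other 4 arrays. The sessions are numbered by their count of arrays and not by time. An identifier does not say whether slide, hybridization or date differed, so these cannot be told apart from the scan.

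A small number of circRNA probes carried most of the fluorescence. The members, 200 of 5397 probes, held between 68.5% and 75.8% of the summed processed signal of all circRNA probes on each array. The 10 members with the highest mean alone held between 25.8% and 39.8%, and the first of these between 4.02% and 11.1%. The mean log2 processed signal of the members fell from 15.73 at rank 1 to 8.49 at rank 200. No member spot was saturated, the brightest reaching between 6.14% and 8.51% of the saturation value on the 6 arrays. At the lower end there was no step in brightness. The last 2 members, ASCRP005081 and ASCRP002730, had means of 8.50 and 8.49, and the next 2 probes, ASCRP005169 and ASCRP002632, had 8.48 each.

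**Figure D1:**
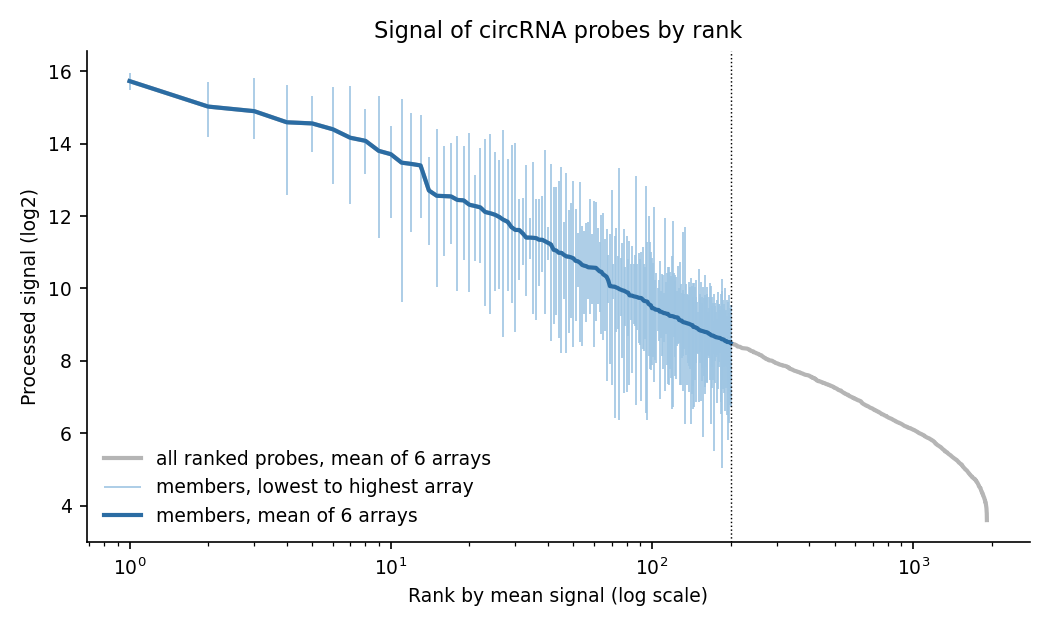
Processed signal (log2) of the circRNA probes well above background on all 6 arrays, by rank of their mean over the arrays on a log scale, without the pair of probes set aside. Vertical lines run from the lowest to the highest array of each member, and the dotted line marks the end of the 200 members, where the curve of means passes smoothly from 8.49 to 8.48.

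The brightest probe, ASCRP000389, had a log2 processed signal of 15.65, 15.95 and 15.87 on the parental arrays and of 15.70, 15.73 and 15.49 on the HepG2-SR arrays, in replicate order. It ranked first on 5 arrays and second on parental replicate 2. Its values spanned 0.46 on the log2 scale, the narrowest range of the 10 brightest. The next probe, ASCRP000018, had 14.19, 15.44 and 15.71 on the parental arrays and 15.24, 14.90 and 14.69 on the HepG2-SR arrays. ASCRP000390 read 14.22, 15.48 and 15.82 on the parental and 15.03, 14.73 and 14.13 on the HepG2-SR arrays. Both were lowest or nearly lowest on parental replicate 1 and highest on parental replicate 3, and the groups overlapped.

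ASCRP003198, the fourth in the order, followed another pattern, with 15.53, 15.62 and 12.57 on the parental and 14.44, 15.30 and 14.09 on the HepG2-SR arrays. ASCRP002875, the tenth, read 14.31, 14.48 and 11.94 on the parental and 13.43, 14.33 and 13.79 on the HepG2-SR arrays. These 2 probes were lowest on parental replicate 3, the array on which ASCRP000018 and ASCRP000390 were highest. ASCRP003486 had the widest range of the 10, with 13.88, 15.32 and 13.53 on the parental and 14.29, 14.40 and 11.40 on the HepG2-SR arrays, a span of 3.92. It was lowest on HepG2-SR replicate 3, as were ASCRP000385 and ASCRP000162, whose values lay between 12.89 and 15.57 and between 12.34 and 15.61. The other 2 of the 10, ASCRP000071 and ASCRP000343, ranged from 13.78 to 15.31 and from 13.17 to 14.95.

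**Figure D2:**
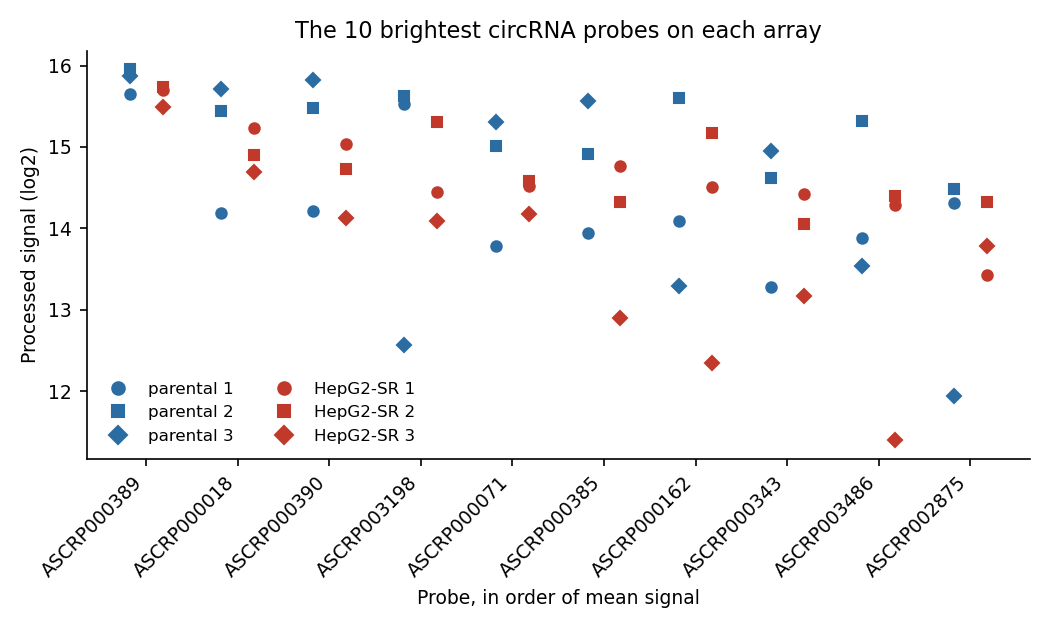
Processed signal (log2) of the 10 brightest circRNA probes on each of the 6 arrays, with parental arrays in blue and HepG2-SR arrays in red and a marker shape for each replicate number. ASCRP000389 lies between 15.49 and 15.95, whereas ASCRP003486 runs from 11.40 to 15.32, and the colours overlap for each of the 10.

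For each of these 10 probes the parental and HepG2-SR arrays overlapped after normalization. Their fitted log2 fold changes, HepG2-SR minus parental, ran from -0.35 for ASCRP003486 to 0.65 for ASCRP000071. The standard error of the latter was 0.47, and limma gave it an adjusted p of 0.82. ASCRP000389 had a normalized log2 signal of 15.70 ± 0.21 (SD, n = 3) in parental and of 15.83 in HepG2-SR cells, where the 3 arrays shared 1 value. Quantile normalization gives the first-ranked probe of each array the same value, so for the very brightest probes the normalized signal carries little more than the rank.

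The set chosen by mean brightness changed little with the scale or when 1 array was left out. Of the 200 members, 184 were also among the 200 brightest when only the parental arrays were ranked, and 189 when only the HepG2-SR arrays were, and 173 probes were in the sets of both groups. Ranking by the authors' normalized values returned 198 of the members, and leaving out any 1 array returned between 191 and 196. The brightest probes of single arrays differed more from the set. Array by array, between 151 members (HepG2-SR replicate 3) and 186 members (HepG2-SR replicate 2) lay among that array's own 200 brightest circRNA probes. Only 110 members did so on every array, while 189 lay among the 500 brightest on every array and all 200 among the 1000 brightest.

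The order of the members was also compared between arrays by rank correlation, which is a description here, since the 200 points share the same arrays. Spearman's rho over the members lay between 0.45 and 0.88 for the 15 pairs of arrays, with a median of 0.69. Over the 1716 other probes detected on all 6 arrays it lay between 0.63 and 0.95, with a median of 0.86, although their range of brightness is not the same as that of the members. The closest pair was parental replicate 2 with HepG2-SR replicate 1 (0.88), and the most distant was HepG2-SR replicate 1 with HepG2-SR replicate 3 (0.45). Pairs within a group had a median of 0.70 and pairs between groups a median of 0.69. Pairs within a scan session had a median of 0.82, against 0.61 for pairs between sessions, so the order of the members was more alike within a scan session than within a group. The second session holds only the pair of parental replicate 1 with HepG2-SR replicate 3, which had a rho of 0.70. The other detected probes showed the same order, with medians of 0.91 within and 0.81 between sessions, and 0.88 within and 0.85 between groups. For the 10 pairs without HepG2-SR replicate 3 rho lay between 0.60 and 0.88.

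Replicate arrays of a group disagreed more on the members than on dimmer circRNA probes. The SD within groups, pooled over both groups on the normalized log2 scale, had a median of 0.61 over the members, with quartiles of 0.38 and 0.97, and of 0.40 over the 1716 other detected probes. In steps of 50 ranks from the brightest down, the median was 0.92, 0.60, 0.41 and 0.45. An SD over 1, which is a spread of more than 2-fold, was found for 46 members (23.0%), of which 21 were among the 50 brightest, and for 50 of the other detected probes (2.91%). The median ratio of the highest to the lowest array was 3.29-fold over the members and 2.16-fold over the others. Without HepG2-SR replicate 3 the medians of the SD were 0.49 for the members and 0.30 for the others, and in the first scan session alone 0.43 and 0.29. In the authors' normalized values of all 6 arrays they were 0.58 and 0.18. After normexp background correction they were 0.565 and 0.162, and without background correction 0.577 and 0.24. The wider gap in these 3 settings came from a lower SD of the other probes, since that of the members changed little.

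This spread was not seen between spots of the same array. For members printed in 3 spots, the median SD over the spots of a probe was between 0.04 and 0.08 on the log2 scale on the 6 arrays, against between 0.05 and 0.11 for the other detected probes. Single members varied very differently. ASCRP005222, the steadiest member, had normalized log2 signals of 8.88, 8.90 and 9.01 in parental and 9.21, 9.11 and 9.11 in HepG2-SR cells, a pooled SD of 0.07. ASCRP000890, the most variable, had 12.06, 8.81 and 8.04 in parental and 6.93, 9.73 and 13.59 in HepG2-SR cells, a pooled SD of 2.80. It was high on parental replicate 1 and HepG2-SR replicate 3, the 2 arrays of the second scan session, and lower on the 4 arrays of the first.

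**Figure D3:**
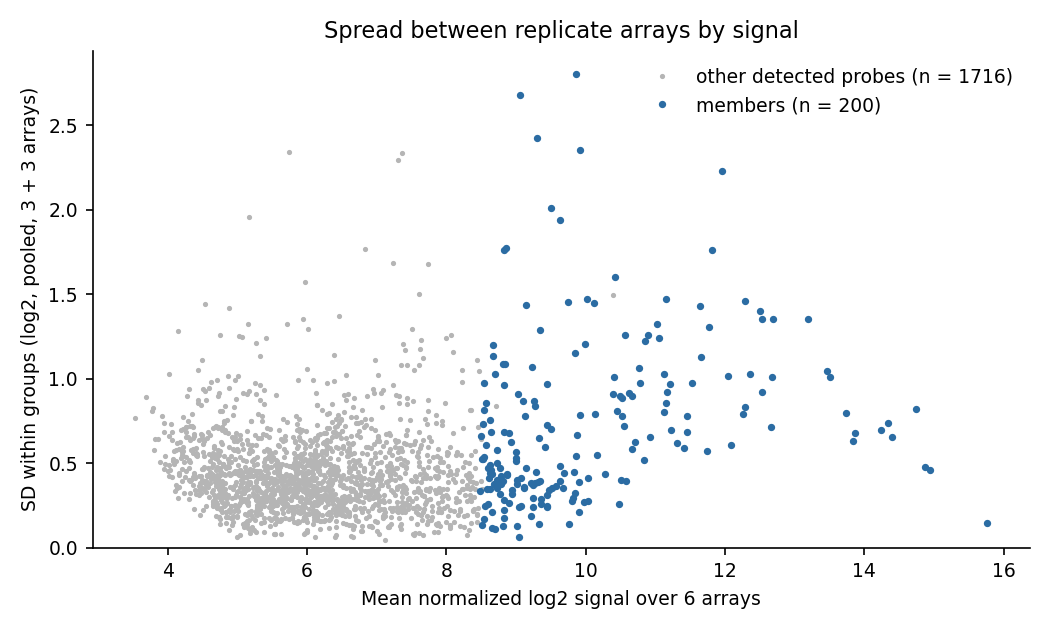
SD between replicate arrays within groups (log2, pooled over 3 parental and 3 HepG2-SR arrays) against mean normalized log2 signal, for the 200 members in blue and the 1716 other circRNA probes well above background on all 6 arrays in grey. The cloud of members reaches higher than the grey one, with 46 members over an SD of 1, and ASCRP000890 is the topmost point at 2.80.

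The same split of the arrays was met in other members. Both arrays of the second scan session lay above all 4 arrays of the first for 26 members and below all 4 for 45, together 35.5% of the members. Over the other detected probes this held for 25.2%, with 17.1% above and 8.2% below. The second session holds 1 array of each group, so it does not coincide with the resistant line, but it includes HepG2-SR replicate 3, and the part of that array in these counts was not tested. Across the 6 arrays 62 members had their lowest normalized value on HepG2-SR replicate 3 and 49 their highest, so this array stood at an end of the range for 111 of 200 members. Among the other detected probes it was the highest array for 44.5% and the lowest for 19.3%.

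Grouping the members by the correlation of their normalized values over the 6 arrays gave 4 profiles, a number chosen after the values were seen. The largest, with 87 members, was low on HepG2-SR replicate 3, where the median deviation from a member's own mean was -0.75 on the log2 scale. The second, with 45 members, was high on that array, with a median deviation of 1.04. The third, with 36 members, held ASCRP000389, ASCRP000018 and ASCRP000390 and was highest on parental replicate 3 (0.48). The last, with 32 members, held ASCRP003198 and ASCRP002875, and was highest on parental replicate 1 (0.55) and lowest on parental replicate 3 (-0.56). By these medians no profile set the 3 HepG2-SR arrays apart from the 3 parental arrays. The 2 largest profiles rested on HepG2-SR replicate 3, and grouping the other 5 arrays in the same way gave profiles of 63, 51, 49 and 37 members, of which the first was highest on parental replicate 3 (0.54) and the second lowest on parental replicate 1 (-0.77).

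**Figure D4:**
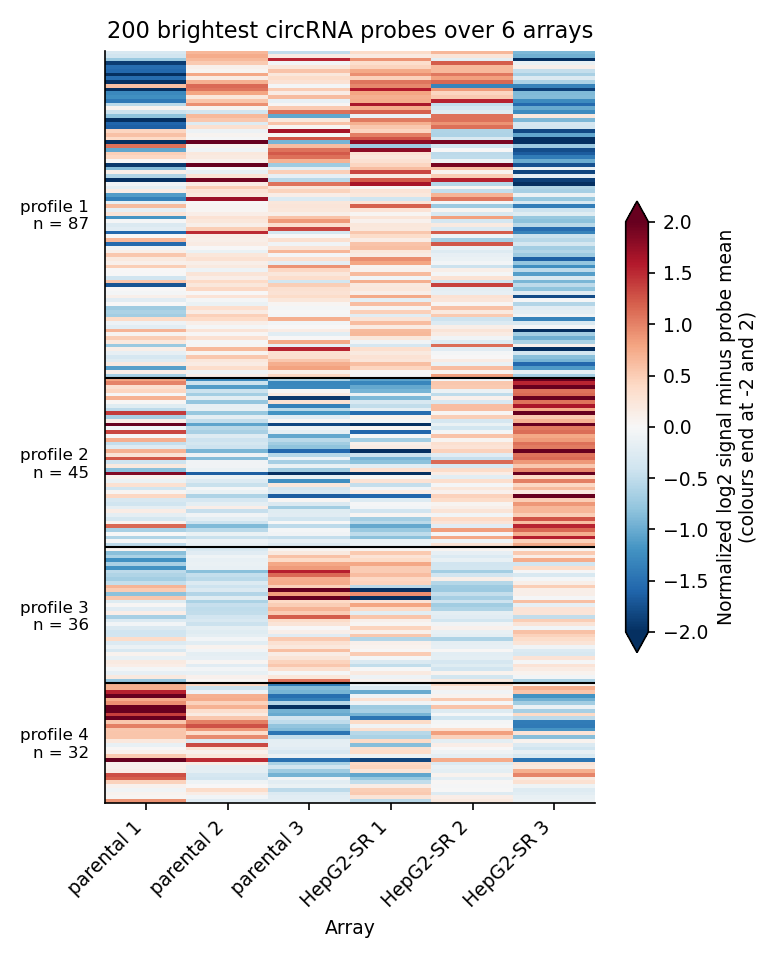
Normalized log2 signal of the 200 members minus each member's mean over the 6 arrays, 1 row per member and 1 column per array, with red above and blue below the mean. Rows are grouped into the 4 profiles of 87, 45, 36 and 32 members and ordered by brightness within each; the strongest colours lie in single columns, above all HepG2-SR replicate 3, and not in the parental or HepG2-SR arrays as a block.

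The probe IDs carry a running number from 1 to 5397, whose order the sources used here do not explain. Members were spread over the whole numbering, but the brightest were more frequent in its first and last parts. Numbers 1 to 1000 cover 18.5% of all circRNA probes and 15.2% of those detected on all 6 arrays, and held 22.5% of the members, 40.0% of the 50 brightest and 7 of the 10 brightest. Numbers 5001 to 5397 cover 7.4% of all circRNA probes and 9.1% of the detected ones, and held 11.5% of the members and 16.0% of the 50 brightest, but none of the 10 brightest. The share printed in a single spot was 23.0% among the members and 22.4% among all circRNA probes.

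Members with consecutive numbers often varied together. Of the 200 members, 60 had another member at the next or previous number, in 24 pairs and in runs of 3, 4 and 5. Pearson's r over the 6 arrays had a median of 0.82 over the 33 pairs of consecutive members and exceeded 0.9 in 15 of them. Over all 19900 pairs of members the median was 0.02, and 3.12% exceeded 0.9. The other detected probes showed the same tendency in a lesser degree, with a median of 0.43 over 685 consecutive pairs. Without HepG2-SR replicate 3 the median was 0.81 over the 33 consecutive pairs, 13 of which exceeded 0.9, 0.01 over all pairs of members and 0.39 over the consecutive other probes. These correlations rest on few arrays, and pairs may share sequence or a host gene, which could not be read from the files.

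The longest run was ASCRP002179 to ASCRP002183. ASCRP002179 had normalized log2 signals of 10.29, 10.05 and 10.97 in parental and 10.11, 9.37 and 8.48 in HepG2-SR cells. ASCRP002180 had 10.39, 10.13 and 11.14 in parental and 10.20, 9.39 and 8.26 in HepG2-SR cells, and its r with ASCRP002179 rounded to 1.0. Both were highest on parental replicate 3 and lowest on HepG2-SR replicate 3. ASCRP002181 moved with them, and its r with ASCRP002180 was 0.93. ASCRP002182 did not, with 10.20, 9.79 and 10.36 in parental and 9.24, 9.23 and 10.20 in HepG2-SR cells, and an r of 0.04 with ASCRP002181. ASCRP002183, lowest on HepG2-SR replicate 3 at 7.04, had an r of -0.47 with ASCRP002182. The fitted log2 fold changes of the 5 ran from -1.27 to -0.50 over all arrays and from -0.88 to 0.28 without HepG2-SR replicate 3, where ASCRP002183 was above 0 and r was 0.81 between ASCRP002180 and ASCRP002181, 0.55 between ASCRP002181 and ASCRP002182 and -0.55 between ASCRP002182 and ASCRP002183. In limma 2 of the 5 had an unadjusted p under 0.05 over all arrays, the smallest being 0.048, and the groups overlapped for each of them. Without HepG2-SR replicate 3, 1 of the 5 did, and it was neither of these 2. The probe before the run, ASCRP002178, was dim at a mean log2 processed signal of 4.53, and the one after it, ASCRP002184, had 7.88.

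The study's comparison of HepG2-SR with parental cells asked which circRNAs differ with sorafenib resistance. In the fit to all 6 arrays, 5.0% of the members had an unadjusted limma p under 0.05, close to the 5.80% of all tested probes. Over the 200 members the median log2 fold change was 0.04, with quartiles of -0.35 and 0.38, and 109 of the 200 were above 0. The median over all 3623 tested probes was -0.01. In bulk RNA, more cells that carry a circRNA and more of it per cell cannot be told apart. Being bright on average over both groups was required of the members, and the ranking used no difference between the groups. The 2 probes set aside by name, however, were lower in HepG2-SR cells. ASCRP002384 had log2 processed signals of 13.60, 11.66 and 12.23 on the parental and 7.36, 9.26 and 8.53 on the HepG2-SR arrays. ASCRP002386 had 10.52, 9.37 and 9.94 on the parental and 7.80, 7.72 and 6.61 on the HepG2-SR arrays. Before the background criterion they ranked 67 and 180 by mean signal, so the counts below leave out 2 bright probes with a fall.

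With a more than 2-fold difference at an unadjusted limma p under 0.05, HepG2-SR cells had 3 members higher and 5 lower than parental cells. These are 1.5% and 2.5% of the members, against 1.32% and 2.01% of all tested probes. At a fold change over 1.5, 5 members were higher and 5 lower, or 2.5% each, against 2.87% and 2.93% of all tested probes. An unadjusted p under 0.05 in either direction was found for 10 members (5.0%) and for 5.80% of all tested probes. The share of members was the larger one under some other settings. It was 10.0% against 6.13% after normexp background correction and 11% against 6.18% without background correction. In the authors' values it was 10.0% against 6.33%, and with scan session blocked 12.0% against 8.58%. Under others it was the smaller one, at 5.0% against 6.04% after 75th percentile scaling and 4.0% against 5.19% with dim probes kept. With replicate number blocked it was 3.0% against 4.94%, and by the methods' t-test 4.5% against 6.29%. Once p-values were adjusted over the 3623 probes by the Benjamini-Hochberg method, limma called 0 members and 0.00% of all probes, and the smallest adjusted p among the members was 0.82. The methods' t-test also called 0 members after adjustment, although 9 were under 0.05 before it. The 3 HepG2-SR arrays all lay above the 3 parental arrays for 11 members (5.5%) and below them for 8 (4.0%), where 7.78% and 5.32% of all tested probes with a value on every array did so. Without HepG2-SR replicate 3, 3 parental arrays lay apart from 2 HepG2-SR arrays for 27 members above (13.5%) and 14 below (7.0%), against 14.96% and 8.98% of all tested probes.

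The fitted changes of the members were larger than those of dimmer probes, and so were their errors. A fitted change of more than 2-fold in either direction was found for 24 members (12.0%) and for 48 of the 1716 other detected probes (2.80%), and for 8.17% of all tested probes, which include dimmer ones. The median standard error of the log2 fold change was 0.45 over the members and 0.35 over the others, and 0.61 over the 50 brightest. An unadjusted p under 0.05 was reached by 5.0% of the members and 4.90% of the others in this fit. Of the 50 brightest members 1 reached it, with a p of 0.048. The counts depended on single arrays. Without HepG2-SR replicate 1, the same 2-fold criterion gave 14 members higher and 15 lower, without parental replicate 1 the counts were 3 and 0, without parental replicate 3 they were 1 and 7, and without HepG2-SR replicate 2 they were 4 and 1. Without HepG2-SR replicate 3, 2 members were higher and 4 lower. The share of all tested probes at an unadjusted p under 0.05 also changed with the array left out. It was 12.17% without HepG2-SR replicate 1, where 34 members passed, and 2.4% without parental replicate 1, where 5 did. The dependence on these 2 arrays was therefore not particular to the members.

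The largest rise among the called members whose groups did not overlap was that of ASCRP002427, ranked 130 by brightness. Its normalized log2 signal was 8.27, 8.97 and 8.42 in parental and 9.44, 9.48 and 10.08 in HepG2-SR cells. The 3 HepG2-SR arrays all lay above the parental ones, with the highest value on HepG2-SR replicate 3. The fitted log2 fold change was 1.11 (standard error 0.34), with an unadjusted p of 0.012 and an adjusted p of 0.82 from limma. ASCRP003731, ranked 138, had 8.89, 8.72 and 7.78 in parental and 9.29, 9.33 and 10.01 in HepG2-SR cells. It too was highest on HepG2-SR replicate 3, and its log2 fold change was 1.08 (standard error 0.40, adjusted p 0.82 from limma). Without HepG2-SR replicate 3 the values were 0.91 for ASCRP002427 and 0.85 for ASCRP003731, both under a 2-fold change. Leaving out 1 array at a time, ASCRP003731 ranged from 0.74, without parental replicate 3, to 1.29, without parental replicate 1. Its unadjusted limma p was 0.029 over all arrays and 0.092 without parental replicate 3.

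Among the called members whose groups did not overlap, the largest fall was that of ASCRP002396, ranked 39. Its normalized log2 signal was 13.36, 11.66 and 10.73 in parental and 9.66, 10.72 and 10.61 in HepG2-SR cells. The groups were separated by only 0.016 between parental replicate 3 and HepG2-SR replicate 2, and the highest value, on parental replicate 1, stood 1.70 above the next. The log2 fold change was -1.59 (standard error 0.67, adjusted p 0.82 from limma), and -0.87 without parental replicate 1, which no longer passed. ASCRP004893, ranked 77 and printed in 1 spot, had 11.01, 9.98 and 10.52 in parental and 9.20, 9.55 and 9.18 in HepG2-SR cells. Its log2 fold change was -1.20 (standard error 0.35), with an unadjusted p of 0.0098 and an adjusted p of 0.82 from limma.

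The 2 scan sessions share no array and so give separate values of the same comparison, of 2 against 2 arrays in the first and 1 against 1 in the other, where no test was possible. The sign of the log2 fold change was the same in both sessions for 129 members (64.5%) and for 61.5% of the other detected probes. The median over the members was 0.09 in the first and 0.11 in the other session. The second session gave the wider values, with an interquartile range of 1.5 over the members against 0.56. Over the other detected probes the ranges were 1.08 in the second session and 0.44 in the first, so the wider values were not particular to the members. Pearson's r between the sessions was 0.40 over the members, 0.20 over the 50 brightest and 0.33 over the other detected probes. All 10 members with an unadjusted p under 0.05 had the same sign in both, which their choice over all 6 arrays favours. ASCRP002427 was at 0.76 and 1.81, ASCRP003731 at 1.06 and 1.12, ASCRP002396 at -1.01 and -2.76, and ASCRP004893 at -0.88 and -1.83.

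**Figure D5:**
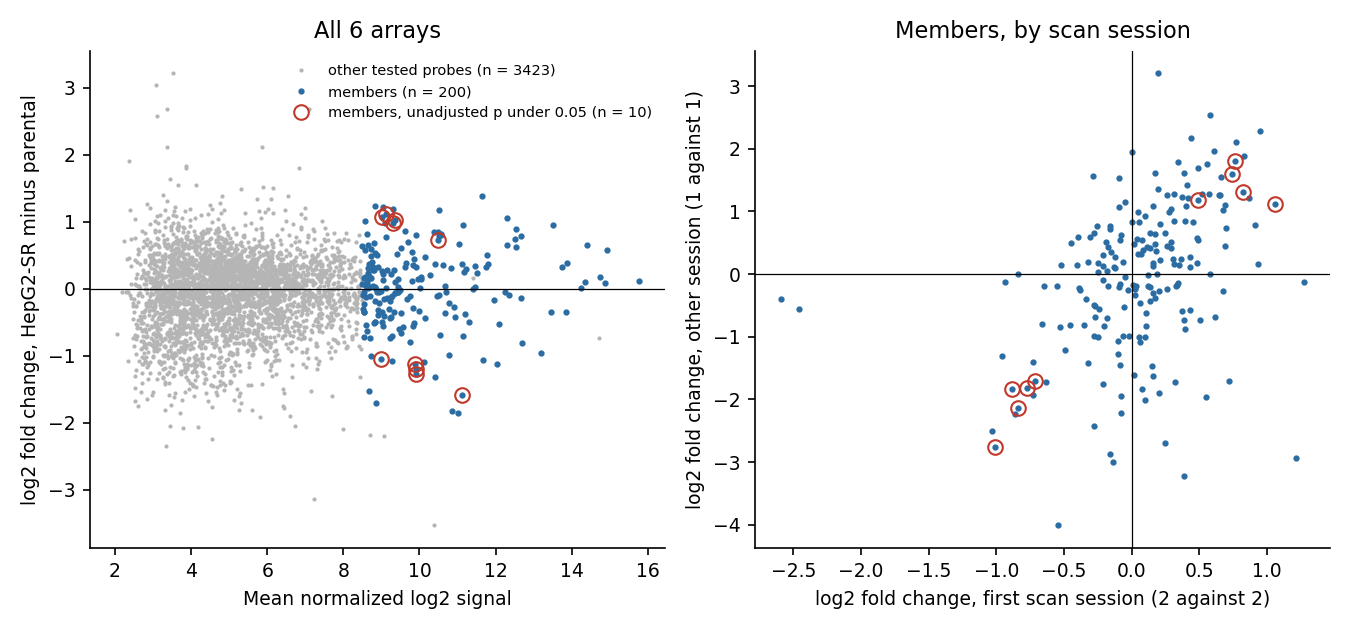
Left, log2 fold change (HepG2-SR minus parental, 3 arrays each) against mean normalized log2 signal for the 200 members in blue and the other 3423 tested circRNA probes in grey; right, the members' log2 fold change in the second scan session (1 array against 1) against that in the first (2 against 2). Red circles mark the 10 members with an unadjusted p under 0.05, and the members lie on both sides of 0 with a median of 0.04.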

How the data were processed

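Arraystar human circRNA arrays were hybridized with RNase R-digested RNA of 3 parental HepG2 and 3 HepG2-SR samples, grouped by the labels. The authors deposited, for each array, the spot intensity from Agilent Feature Extraction 11.0.1.1 (processing notes), not normalized between arrays, and a table of quantile-normalized log2 values of 4200 probes, which was used only as an alternative. Arrays have no depth, and their number limits the precision.

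From the intensities, control spots and spots marked as outliers were dropped, and each probe's log2 processed signal was the mean of its remaining spots, quantile normalized over 5397 circRNA probes. The members were ranked before normalization. Probes that stood well above background on 3 or more arrays (3623) were fitted with limma 3.58.1 in R 4.3.3 without covariates, with Benjamini-Hochberg adjustment over all of them, and the fit was tested on simulated data. Calls used a fold change over 2 or 1.5 and an unadjusted p under 0.05. Probes were named by brightness, by place at the threshold, by the 2 largest rises and falls among called members with separate groups, by smallest and largest SD, and by the longest run of ID numbers. The members, lists and rules were chosen with earlier results of these data known. Scaling, background correction, filter, test, block and array alternatives are given at the end.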

Additional observations from a re-analysis of the deposited data

How the results depend on the processing

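At a fold change over 2 the members called higher and lower were 3 and 5. They were 0 and 1 after normexp background correction, 1 and 4 without background correction, 0 and 3 in the authors' values, 3 and 2 without a filter on dim probes, 2 and 1 by the methods' t-test, 6 and 7 with scan session blocked, and 1 and 3 in the first scan session only. At a fold change over 1.5 the counts were 5 and 5. They were 7 and 3 after normexp, 9 and 6 without background correction, 6 and 2 without the filter, 7 and 9 among probes well above background on all 6 arrays, 4 and 1 by the methods' t-test, 16 and 8 with scan session blocked, and 3 and 6 in the first session. Leaving out 1 array at a time, the counts ranged from 1 to 14 higher and 0 to 15 lower at a fold change over 2, and from 1 to 16 and 1 to 18 at a fold change over 1.5. The highest of each came without HepG2-SR replicate 1. With the replicate number as a block they were 2 and 3 at a fold change over 2 and 2 and 4 at 1.5. The labels share replicate numbers between the groups. Over all tested probes the deviations of same-numbered arrays had an r of -0.25, 0.20 and 0.02, in replicate order. Over the members r was -0.56, 0.67 and -0.3. The signs differ between replicates, so these values do not show whether the numbers pair the arrays. An adjusted p under 0.05 was reached by 0 members under every setting run, with between 5 and 34 members at an unadjusted p under 0.05. The share of all tested probes at that unadjusted p lay between 2.4%, without parental replicate 1, and 12.17%, without HepG2-SR replicate 1. These settings also gave 5 and 34 members, so that movement was not particular to the members. After normexp the share was 6.13% with 20 members, against 5.8% with 10 in the main fit. The fold change counts above are given without such a share. The median log2 fold change over the members, 0.04, was 0.17 after 75th percentile scaling, against -0.02 over all tested probes, and lay between -0.01 and 0.09 with each array left out, so its direction was not fixed. The counts of members whose groups did not overlap stayed between 9 and 13 higher and between 7 and 8 lower over the 4 other scalings and background settings, but were 27 and 14 without HepG2-SR replicate 3, an alternative added after seeing the data, which sets 3 arrays against 2. The 4 members named for their change kept their direction in all 68 refits and their call in 42, ASCRP002396 in 5 of 17 and ASCRP004893 in 15 of 17. The causes were not tested. The precision is limited by the 3 arrays a group.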

Other observations

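Some circRNA probes as bright as the members were left out by the rule because 1 array gave them no value, their spots there being marked as outliers. ASCRP005274, printed in 1 spot, had log2 processed signals of 14.98, 16.51 and 13.62 on the parental arrays and of 15.52 and 11.84 on HepG2-SR replicates 2 and 3. The value on parental replicate 2 was the highest of any circRNA probe on that array. ASCRP004647, also in 1 spot, had 13.86, 13.25 and 8.70 on the parental arrays and 12.35 and 9.70 on HepG2-SR replicates 2 and 3. ASCRP002094, in 3 spots, had 13.01, 11.61 and 7.33 on the parental arrays and 7.99 and 6.74 on HepG2-SR replicates 1 and 3. These 3 probes shared with the members a wide range over the arrays of 1 group. Without the requirement of being well above background on all 6 arrays, 197 of the 200 members were chosen again.

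ASCRP002827 passed the background criterion on each array and had a log2 processed signal of 11.84 on parental replicate 1, but between 6.01 and 7.34 on the other 5, and so was not a member.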
